A study of Mus musculus with 18 samples.

Results

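Notch receptors, ligands and targets were followed in mouse fibroblasts on the way to induced pluripotent stem cells (iPSCs). The set holds 10 genes of the 22180 with a value: the ligands Jag1 and Dll1, the receptors Notch1, Notch2 and Notch3, and the targets Hes1, Nrarp, Heyl, Hey1 and Hey2. The set was selected on the value of Hey2, which was lower with AGi on each day sampled, and the other members were then taken by name from the pathway. The difference of Hey2 between the arms is therefore given as a description with no test, and the question put to the other 9 members was whether they followed it. AGi is the combination of ascorbic acid and an inhibitor of the kinase GSK3.

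Notch is a receptor that a ligand on a neighbouring cell activates. Cleavage by an ADAM protease and then by gamma-secretase frees its intracellular domain, which enters the nucleus and turns the DNA-binding protein Rbpj, with a Mastermind coactivator, into an activator of target genes. The Hes and Hey families of transcriptional repressors and Nrarp, a feedback inhibitor of the pathway, are among those targets, and in vessels and mesenchymal cells Hey genes and Notch3 are known for their part in mural cells.

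The cultures were reprogrammable MEFs (Rep-MEFs), mouse embryonic fibroblasts of the strain Black6-129X1/SvJ that carry the inducible factors OKSM (Oct4, Klf4, Sox2 and Myc). Bulk cultures expressed OKSM with or without AGi, and on days 2, 4, 6, 8, 10 and 12 a single array was run for either arm. A further 6 arrays, of the same strain, held 1 sample each: Rep-MEFs without dox, granulocyte-macrophage progenitors (GMPs), wild-type ESCs (embryonic stem cells), the Fibroblast-iPSC line from 96 hours of OKSM plus AGi, the GMP-iPSC line, which had taken 48 hours, and Thy1+ cells sorted as refractory after OKSM had been on for 3 days. No condition was repeated, so errors and p-values of the time course measure the spread between days, which may be technical. The labels do not say whether the days of an arm were separate cultures or samples of the same culture. How many arrays there are sets the limit on precision. All values are log2 expression values, and a difference of 1 is a doubling.

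Cell type markers were high on the arrays labelled for them. The median over 10 myeloid progenitor genes was 12.13 in GMPs, that over 10 pluripotency genes lay between 11.12 and 11.35 in ESCs and both iPSC arrays, and that over 10 fibroblast genes was 10.80 in MEFs. The fibroblast median was lower in GMPs and ESCs, at 6.12 and 7.76. On days 10 and 12 of OKSM without AGi it was higher than in MEFs, at 10.90 and 11.20. The 4 factors themselves gave a mixed picture. On the 13 arrays labelled as expressing OKSM, Klf4 read 11.59 to 12.11, above its 9.62 in MEFs without dox, and Pou5f1 (Oct4) read at most 7.79 but on all 13 above its 6.80. Myc read 8.59 to 10.72, below its 11.40 in MEFs on all 13. Sox2 read 5.41, 5.86 and 5.33 on days 2, 4 and 6 of OKSM and 5.83 in Thy1+ cells, beside 5.36 in MEFs. With AGi it read 5.80 and 5.67 on days 2 and 4. Its level does not bear out the label on these arrays of either arm. Whether these probe sets detect the inducible copies is not given in the labels, and OKSM below names the arm as labelled. The hybridisation controls are spiked into the labelled sample, and each of their 18 probe sets had a higher mean in the AGi arm, by an average of 0.17 ± 0.07 (SD, 6 days) and at most by 0.26. Differences of that size cannot be told apart from a difference between the arrays of the arms. In bulk cultures, fewer cells of a type and less RNA per cell cannot be told apart either.

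The targets did not follow Hey2 as a group. Hey1 was the 1 member other than Hey2 called lower with AGi, by 1.22 on average, and Hes1, Nrarp and Heyl were not called. Among receptors, Notch2 fell with time in the AGi arm and drew away from the OKSM arm. Nrarp read higher on all 13 arrays labelled as expressing OKSM than on all 5 others, with or without AGi. Of the 9 members other than Hey2, limma called 1 lower and 0 higher, beside 38.9% of all 13865 genes tested called in either direction. Their median difference was −0.022, against 0.001 over all genes tested, and 10 of the 10 members passed the filter on low values.

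**Figure D1:**
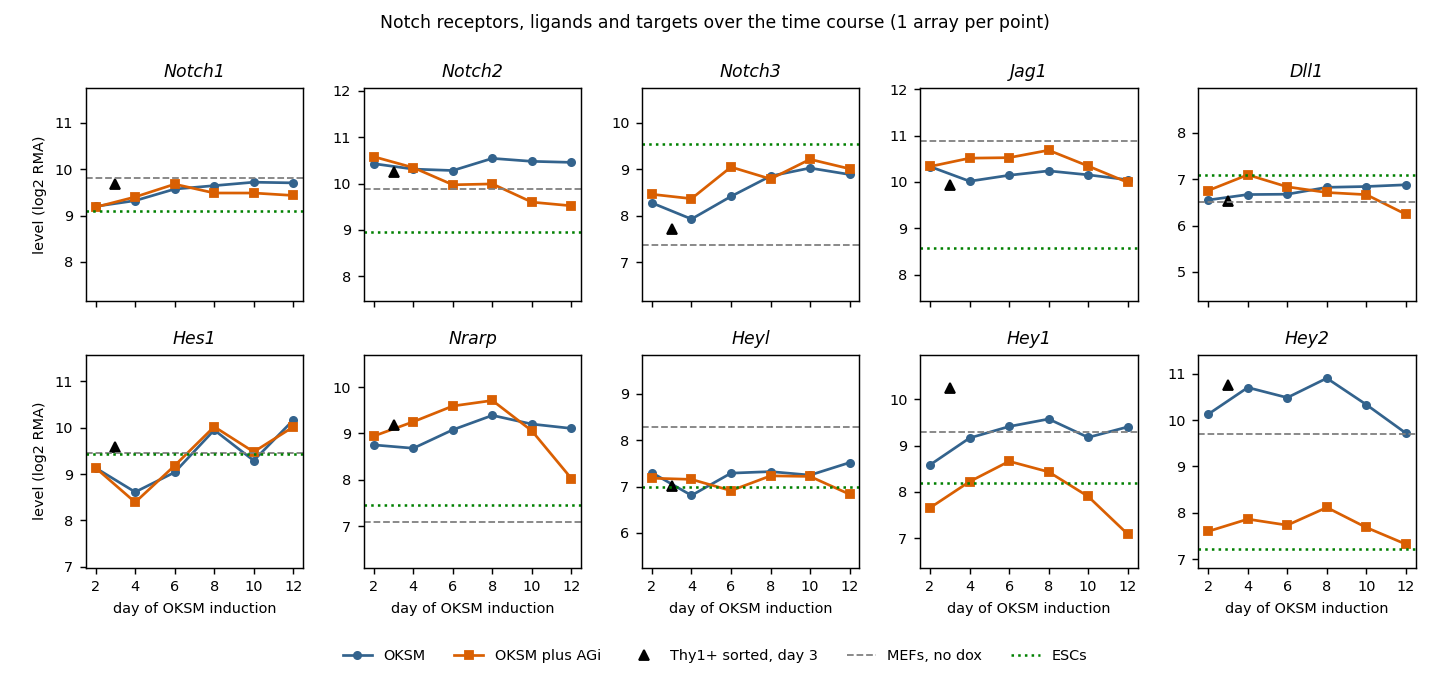
Level of each member (log2, vertical axis) against day of OKSM induction, 1 array per point, in OKSM (blue circles) and OKSM plus AGi (orange squares). The triangle is the Thy1+ array of day 3, the dashed line MEFs without dox and the dotted line ESCs. The vertical axis spans the same range in every panel but starts at a different level. The arms of Hey2 run apart on all 6 days, those of Hes1 overlie each other, and those of Notch2 part from day 6 on.

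Bases before the start site of the members were read from RefSeq (GRCm38.p6), and 7 of the 10 members had an entry. Hey1, Heyl and Hes1 had none, so Hey1, the member called beside Hey2, could not be examined. The bases are shown for Hey2 and Nrarp, the only targets with an entry. Hey2 separated the arms, and Nrarp the arrays labelled as expressing OKSM from the rest. Each sequence is the 250 bases before the start site, 5′ to 3′ on the strand of the gene, with matches in capitals. The motifs searched, on both strands, were TGGGAA, the core bound by RBPJ, CACNAG, the N-box bound by Hes proteins, and CACGTG, the E-box bound by Hey proteins.
Hey2 (chr10:30842784-30843033, minus strand): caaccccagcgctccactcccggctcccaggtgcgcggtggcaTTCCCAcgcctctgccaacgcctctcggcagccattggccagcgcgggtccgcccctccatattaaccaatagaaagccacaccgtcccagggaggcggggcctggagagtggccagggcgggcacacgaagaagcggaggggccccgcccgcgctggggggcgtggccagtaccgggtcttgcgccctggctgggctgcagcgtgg
Nrarp (chr2:25180508-25180757, plus strand): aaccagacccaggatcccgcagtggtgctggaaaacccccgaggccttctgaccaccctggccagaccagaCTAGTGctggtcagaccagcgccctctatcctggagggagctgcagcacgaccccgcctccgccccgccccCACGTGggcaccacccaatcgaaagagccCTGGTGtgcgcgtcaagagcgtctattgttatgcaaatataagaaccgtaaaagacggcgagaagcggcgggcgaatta
The Hey2 window held 1 match to the RBPJ core, on the strand opposite to the gene, from 207 to 202 bases before the start site. The Nrarp window held none, but 2 N-boxes and 1 E-box, none of which overlapped. Of all 32851 such windows in the table, 21.6% held the RBPJ core, 36.7% an N-box and 6.02% an E-box, so each match is a description of these letters and not of a bound site. The windows of Notch1 and Notch2 held 1 N-box each and that of Notch3 held 2, and the windows of Jag1 and Dll1 held no match to the 3 motifs.

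Of the ligands, Jag1 signals to Notch receptors on neighbouring cells in many tissues. It read between 10.02 and 10.33 (median 10.15) on the 6 OKSM arrays and between 9.99 and 10.68 (median 10.43) on the 6 AGi arrays, so the arms overlapped. The difference was 0.24 ± 0.09 (limma SE, n = 6 days, higher on 5 of 6 days, limma adjusted p = 0.0658) and was not called. Leaving out day 2 or day 12 gave a call (limma adjusted p = 0.0468 and 0.0331), while with the control difference subtracted the value was 0.076 (limma adjusted p = 0.546). Jag1 was highest in MEFs without dox, at 10.88, and lowest in GMPs, at 5.79. The ESC, Fibroblast-iPSC and GMP-iPSC arrays lay between, at 8.58, 8.79 and 8.03.

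Dll1, a ligand of the Delta class, read low throughout, from 6.24 to 7.09 over the 18 arrays, beside array medians of 6.32 to 6.46. Its difference between the arms was −0.022 ± 0.13 (limma SE, n = 6 days, lower on 3 of 6 days, limma adjusted p = 0.907). Within the AGi arm it read 6.76, 7.09, 6.84, 6.71, 6.67 and 6.24 in order of day. That is a slope of −0.057 ± 0.017 log2 per day (limma adjusted p = 0.0414), which was lost when any one of days 4 to 12 was left out, when its 2 probe sets were averaged (limma adjusted p = 0.0603) or with the controls subtracted (limma adjusted p = 0.172). In OKSM the slope was 0.033 ± 0.017 (limma adjusted p = 0.246), and the difference of the slopes was not called (limma adjusted p = 0.0737).

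Of the receptors, Notch2 had the clearest course. In OKSM it read 10.43, 10.31, 10.28, 10.54, 10.48 and 10.46 on days 2, 4, 6, 8, 10 and 12. With AGi it read 10.58, 10.35, 9.97, 9.99, 9.60 and 9.52 on the same days. The OKSM arrays stayed within a narrow band, and from day 6 on each AGi array was lower than the OKSM array of its day. Notch2 fell by 0.107 ± 0.014 log2 per day with AGi (limma SE, adjusted p = 0.000541), and its slope in OKSM was 0.013 ± 0.014 (limma adjusted p = 0.578). The slopes differed by −0.12 ± 0.019 (limma adjusted p = 0.00889).

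Over the 10 members, this was the 1 called difference of slope, beside 3.06% of all genes tested. In the AGi arm 2 members fell, Notch2 and Dll1, and none rose, beside 18.8% of all genes called in either direction. The mean difference of Notch2 over the 6 days was −0.42 ± 0.16 (limma adjusted p = 0.0670). It was −0.042 on days 2, 4 and 6 alone (limma adjusted p = 0.828) and −0.79 on days 8, 10 and 12 alone (limma adjusted p = 0.00596). The difference of slope was not called without day 4, day 10 or day 12 (limma adjusted p = 0.0618, 0.0527 and 0.0543), with the controls subtracted (limma adjusted p = 0.131) or as late against early days paired by day (limma adjusted p = 0.0679). The ESC, Fibroblast-iPSC and GMP-iPSC arrays held lower levels than any array of the time course, at 8.95, 8.72 and 8.80.

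Notch3, the receptor associated with mural cells, read from 7.93 on day 4 to 9.03 on day 10 in OKSM and from 8.37 on day 4 to 9.22 on day 10 with AGi. Both arms thus had their lowest and highest array on the same day, and they overlapped. It rose in OKSM by 0.097 ± 0.026 log2 per day (limma adjusted p = 0.0437), the 1 member of 10 called for its slope there, beside 8.99% of all genes. The slope with AGi was 0.072 ± 0.026 (limma adjusted p = 0.0783), and the slopes differed by −0.025 ± 0.037 (limma adjusted p = 0.789). The call in OKSM was lost without the filter on low values (limma adjusted p = 0.0537), with the controls subtracted (limma adjusted p = 0.127) and without any one day but day 2. The difference between the arms was 0.25 ± 0.09 (limma SE, n = 6 days, higher on 5 of 6 days, limma adjusted p = 0.0665). It was 0.084 with the controls subtracted (limma adjusted p = 0.505) and 0.083 on days 8, 10 and 12 alone (limma adjusted p = 0.584). Notch3 read 7.37 in MEFs, 9.54 in ESCs, 8.50 in Fibroblast-iPSC and 9.24 in GMP-iPSC.

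Notch1, the receptor with wide roles in stem and blood cells, had the mean difference nearest to 0 among the receptors. It read between 9.20 and 9.72 in OKSM and between 9.18 and 9.68 with AGi, and its difference was −0.082 ± 0.072 (limma SE, n = 6 days, lower on 4 of 6 days, limma adjusted p = 0.396). With the controls subtracted it was called, at −0.25 (limma adjusted p = 0.0278). Its level was highest in GMPs, at 10.31, and lowest in ESCs, at 9.09.

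Among the targets, Hes1, a cyclic repressor that many Notch signals induce, followed the day and not the arm. In OKSM it read 9.13, 8.61, 9.04, 9.95, 9.29 and 10.16 in order of day, and with AGi 9.13, 8.39, 9.18, 10.02, 9.48 and 10.02. Each arm had its lowest array on day 4 and its 2 highest on days 8 and 12. The difference was 0.006 ± 0.072 (limma SE, n = 6 days, limma adjusted p = 0.954), and no day differed by more than 0.22 in either direction. With the controls subtracted it was −0.16 (limma adjusted p = 0.146). Neither slope was called (0.12 ± 0.05 per day in both, limma adjusted p = 0.145 and 0.0925).

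Nrarp, which limits the signal by acting on the Notch intracellular complex, separated the arrays labelled as expressing OKSM from the others. It read 7.09 in MEFs without dox, 6.41 in GMPs, 7.46 in ESCs, 6.93 in Fibroblast-iPSC and 7.19 in GMP-iPSC. The 13 arrays with that label lay between 8.03 and 9.71, and the Thy1+ array among them read 9.17. None of them overlapped the other 5, and of the factors Klf4 also read higher on these 13 than on the other 5, while Pou5f1, Sox2 and Myc did not. Nrarp was the 1 member of 10 with this pattern, which 2.83% of all genes tested share in one direction or the other, and since these arrays also differ in cell type, the factors and the cell type cannot be told apart.

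Between the arms, the difference of Nrarp had both signs. It read 8.75, 8.68, 9.08, 9.39, 9.20 and 9.11 in OKSM and 8.94, 9.25, 9.59, 9.71, 9.06 and 8.03 with AGi. The AGi arrays were the higher ones on days 2 to 8 and the lower ones on days 10 and 12. The mean difference was 0.062 ± 0.21 (limma SE, n = 6 days, higher on 4 of 6 days, limma adjusted p = 0.834). It was 0.43 on days 2, 4 and 6 alone (limma adjusted p = 0.0531) and −0.30 on days 8, 10 and 12 alone (limma adjusted p = 0.413). The difference of the slopes, −0.12 ± 0.07 per day, was not called (limma adjusted p = 0.357). It was −0.046 without day 12 (limma adjusted p = 0.750) and −0.20 without day 2 (limma adjusted p = 0.198).

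Heyl, the third Hey family member, read low in the time course, between 6.81 and 7.52 in OKSM and between 6.84 and 7.23 with AGi. Its difference was −0.16 ± 0.12 (limma SE, n = 6 days, lower on 5 of 6 days, limma adjusted p = 0.337). It was −0.054 without day 12 and −0.26 without day 4, and −0.33 with the controls subtracted (limma adjusted p = 0.0736). It was highest in MEFs without dox, at 8.29, above all 17 other arrays.

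Hey1, which acts with Hey2 in vessel and heart development, was the member that moved with Hey2. In OKSM it read 8.59, 9.16, 9.41, 9.57, 9.18 and 9.40 in order of day. With AGi it read 7.66, 8.22, 8.66, 8.43, 7.90 and 7.09. Each AGi array lay below the OKSM array of its day, though the arms overlapped, since the OKSM array of day 2 lay below the AGi array of day 6. Hey1 fell with AGi by 1.22 ± 0.19 (limma SE, n = 6 days, lower on 6 of 6 days, limma adjusted p = 0.00276), which is 2.34-fold.

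The difference of Hey1 was between −0.75 and −1.27 on days 2 to 10 and −2.31 on day 12. Without day 12 it was −1.01, and the call held there and in every alternative run (limma adjusted p between 0.00087 and 0.0155). Against the largest control difference in place of 0 the limma adjusted p was 0.0141. The slopes of the arms, 0.061 and −0.058 per day, did not pass a test of their difference (limma adjusted p = 0.399). Hey1 was highest of all 18 arrays in the Thy1+ cells, at 10.24, where MEFs read 9.30 and GMPs, the lowest, 6.19.

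Hey2, a repressor that marks arterial and mural cells, chose the set. In OKSM it read 10.13, 10.70, 10.48, 10.90, 10.33 and 9.72 in order of day, and with AGi 7.60, 7.86, 7.73, 8.12, 7.68 and 7.32. The arms did not overlap: the lowest OKSM array lay above the highest AGi array. Hey2 was the 1 member of 10 whose arms did not overlap, and 11.4% of all genes tested had arms that did not, which is given as background only, since the arms chose this gene.

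The difference of Hey2 was −2.66 ± 0.17 (SD, n = 6 days), a 6.31-fold lower level, and lay between −2.84 and −2.40 on every day. It was already −2.53 on day 2, and the slopes were −0.039 per day in OKSM and −0.022 with AGi. Across the series the Thy1+ array read 10.75, within the range of the OKSM arm, and MEFs without dox read 9.70, just under its lowest array. ESCs read 7.23 and Fibroblast-iPSC 7.26, just under the lowest AGi array, followed by GMP-iPSC at 6.83 and GMPs at 6.25. The gaps between MEFs and the lowest OKSM array, and between both of ESCs and Fibroblast-iPSC and the lowest AGi array, were smaller than the SD over days of either arm (0.42 in OKSM and 0.26 with AGi).

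**Figure D2:**
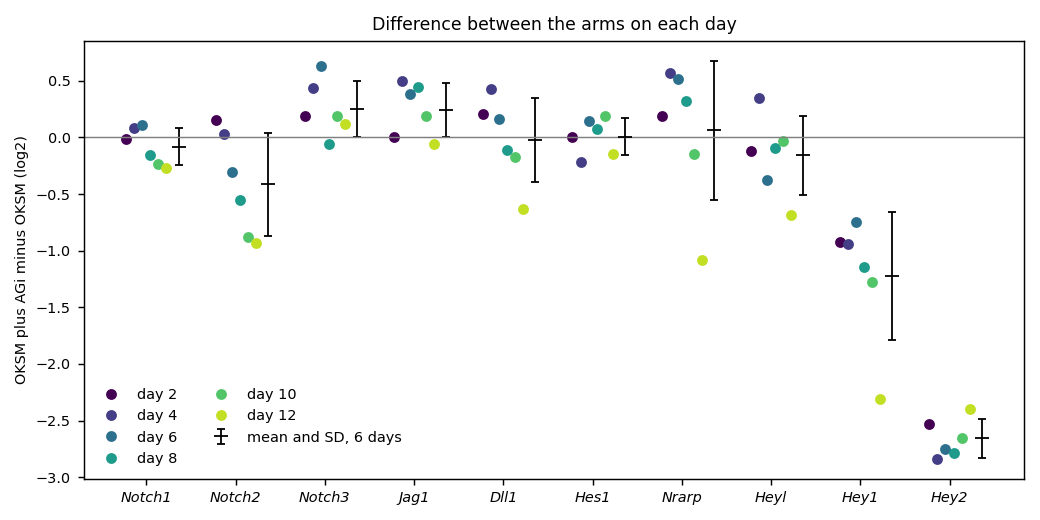
Difference between the arms (OKSM plus AGi minus OKSM, log2, vertical axis) for each member, 1 point per day, with the mean and SD over the 6 days as a cross bar. All points of Hey1 and Hey2 lie below 0, with day 12 of Hey1 apart at −2.31, and Notch2 runs from 0.15 on day 2 to −0.94 on day 12.

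The days were compared across members after these values were seen. For 7 of the 10 members the difference was lowest on day 12: Hey1, Heyl, Nrarp, Notch1, Notch2, Jag1 and Dll1. Among all genes tested, 27.8% had their lowest difference on that day. Hey2 was not among the 7, and its day 12 difference was the smallest in size of its 6. The differences of 1 day share both arrays of that day, so the members are not independent of each other here.

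Markers of other cell types were also counted between the arms, beside 38.9% of all genes tested called in either direction. Of 9 mural and smooth muscle markers tested, 6 were called lower and 1 higher with AGi. The mean over the 10 listed genes lay between 8.91 and 9.20 in OKSM and between 8.20 and 8.73 with AGi. These ranges of the mean did not overlap, but the medians over the same genes did. On day 12 the median was 8.28 in OKSM and 8.43 with AGi. Among single genes tested 11.4% had arms that did not overlap, which is a share of genes and not of list means. Of 10 fibroblast markers, 7 were lower and none higher, with list means of 8.61 to 10.70 in OKSM and 7.69 to 9.91 with AGi. Their part in the differences of Hey1 and Hey2 was not tested. In the other direction, 6 of 10 pluripotency and 7 of 10 epithelial markers were higher with AGi, and their list means ranged from 6.06 to 7.81 and from 6.65 to 7.64 in OKSM and from 6.24 to 10.21 and from 6.45 to 9.29 with AGi. Of 4 endothelial markers tested, 3 were lower. The mean over that list of 10 stayed between 6.24 and 6.67 in both arms, near the array medians, as most of its genes did not pass the filter. The called ones read higher than that mean. Tek read 10.16 to 10.36 in OKSM, 10.48 on day 2 and 8.29 on day 12 with AGi, and 5.33 in MEFs without dox. Cdh5 and Erg read 7.97 and 8.02 on day 12 of OKSM. Pecam1, the tested marker that was not called, went the other way, at 0.74 (higher on 3 of 6 days, limma adjusted p = 0.132). On day 12 it read 6.62 in OKSM and 9.12 with AGi. Of 8 macrophage markers 4 were lower and 1 higher, of 7 neural progenitor markers 1 lower and 2 higher, and of 5 myeloid progenitor markers 1 each way. The neural and myeloid progenitor counts lay near the share over all genes. The mean of the mural list was 10.56 in MEFs without dox, where Hey2 read 9.70, and 8.92 in Thy1+ cells, where it read 10.75.

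The rest of the pathway was described by a list of 57 genes, of which 55 had a value and 50 passed the filter on low values. With AGi 4 of the 50 were called higher and 14 lower, a share close to the 38.9% of all genes, and the median difference was −0.10. With the controls subtracted the counts were 1 higher and 28 lower, and against the largest control difference 0 higher and 2 lower, these being Maml2 and Dlk1. The median of all genes moved by −0.17 on subtraction, and the split of all called genes went from 2722 higher and 2675 lower to 1055 higher and 5279 lower. A second quantile normalisation gave 5 higher and 13 lower on this list. The counts thus changed with the subtraction of the controls and with the size tested against, and little with that normalisation.

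The counts by role that follow are to be read beside the 38.9% of all genes called in either direction. Among other receptors and ligands, 2 of 4 tested were lower and none higher. Dlk1, a non-canonical ligand, fell, with a difference of −0.93 ± 0.14 (limma SE, n = 6 days, lower on 6 of 6 days, limma adjusted p = 0.00258). Its relative Dlk2 was at −0.51 (limma adjusted p = 0.0108). Among enzymes that cleave or glycosylate Notch, 4 of 13 were lower and 1 higher. Lfng, the Fringe enzyme that changes which ligand a receptor prefers, was at −0.86 ± 0.20 (limma adjusted p = 0.0119), and Furin, the convertase that cuts the receptor before it reaches the surface, at −0.42 (limma adjusted p = 0.00336). Rfng, another Fringe, was higher by 0.39 (limma adjusted p = 0.00774), but was not called with the controls subtracted (limma adjusted p = 0.0621).

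In the nuclear complex 5 of 14 were lower and 2 higher. The 3 Mastermind coactivators went different ways. Maml2 read 10.48, 10.60, 10.73, 10.92, 10.87 and 10.76 in OKSM in order of day and 10.24, 9.99, 9.65, 9.56, 9.39 and 9.01 with AGi. The AGi array was lower on each day, and the arms did not overlap, as was the case for 11.4% of all genes tested. The mean difference was −1.09 ± 0.19 (limma SE, n = 6 days, limma adjusted p = 0.00433). Maml2 was also the 1 gene of the 50 whose slopes differed, beside 3.06% of all genes tested. Its slopes differed by −0.15 per day (limma adjusted p = 0.00431). Maml1 was lower (−0.34, limma adjusted p = 0.00542), and Maml3 was higher by 0.52 ± 0.10 (limma adjusted p = 0.00685), also with the controls subtracted (0.35, limma adjusted p = 0.0339).

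Of the Groucho corepressors, which Hes proteins recruit, Tle2 was lower (−0.67, limma adjusted p = 0.0120) and Tle4 higher by 0.37 (limma adjusted p = 0.00618). The call of Tle4 was lost with the controls subtracted (limma adjusted p = 0.0849). Rbpj, the DNA-binding protein of the pathway, was picked out after its values were seen: its difference was 0.020 ± 0.11 (limma SE, n = 6 days, limma adjusted p = 0.900). Of 11 regulators of trafficking and turnover, Numbl and Numb, which hold back Notch by endocytosis, were lower (−0.50 and −0.28, limma adjusted p = 0.00773 and 0.00709). Fbxw7, which targets the Notch intracellular domain for degradation, was higher by 0.37 (limma adjusted p = 0.0102), but not called with the controls subtracted (limma adjusted p = 0.0976). Of 8 further targets and relatives of Hes and Hey, 1 was lower, Ccnd1 (cyclin D1), at −0.41 ± 0.07 (limma adjusted p = 0.00486). Within the arms, 3 of the 50 rose and none fell in OKSM, beside 8.99% of all genes called there, and 7 rose and 3 fell with AGi, beside 18.8%.

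**Figure D3:**
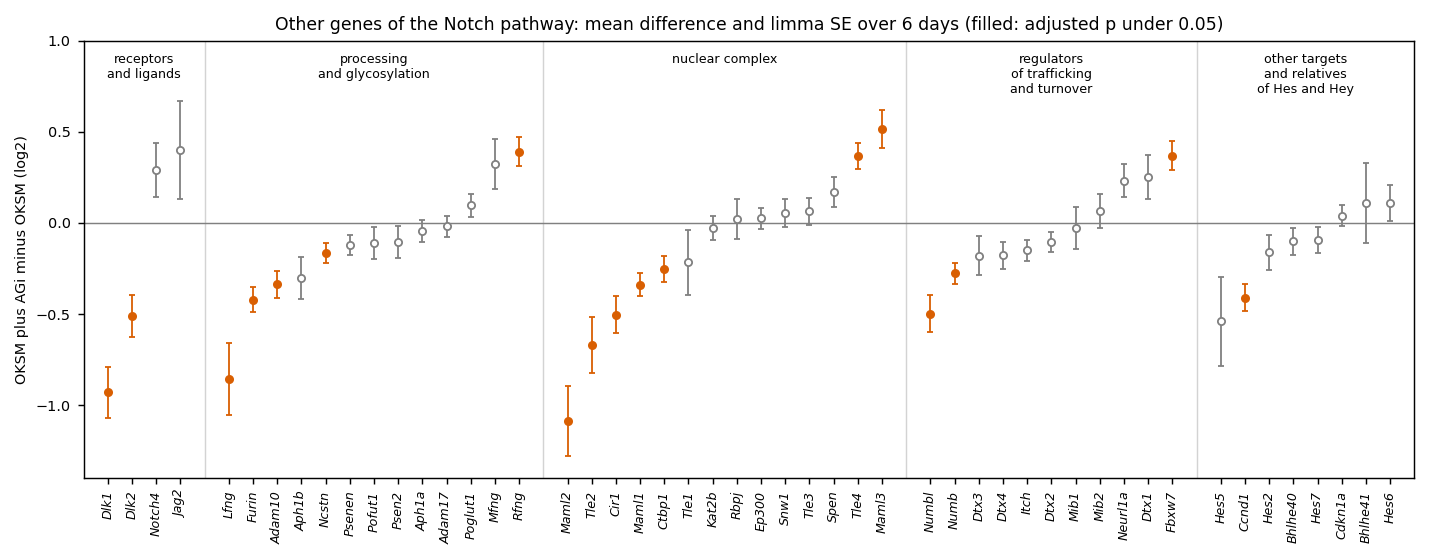
Mean difference between the arms (OKSM plus AGi minus OKSM, log2, vertical axis) with the limma SE for the 50 pathway genes tested, sorted within 5 roles. Filled orange points passed the adjusted p threshold of 0.05 and open grey points did not. Maml2 is lowest at −1.09 and Maml3 highest among the called genes at 0.52.

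The single arrays were set against the 1 array of MEFs without dox, which all these differences share, and with no replicate there is no test. A difference of at least 1 log2 was counted. In ESCs 4 members were lower and 1 higher, beside 25.6% of all genes past that size. Hey2 (−2.47), Jag1 (−2.30), Heyl (−1.29) and Hey1 (−1.11) were the lower ones and Notch3 (2.18) the higher one. Fibroblast-iPSC had 4 lower and 1 higher, beside 23.2% of all genes, and GMP-iPSC 5 lower and 1 higher, beside 26.4%.

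Hey2, Hey1, Notch2 and Jag1 were lower and Notch3 was higher in both iPSC arrays, whichever cell they were made from. In ESCs Notch2 missed the size, at −0.93. In GMPs 5 members were lower and none higher, beside 24.7% of all genes. Jag1, Hey2 and Hey1 lay below the median of the GMP array, 6.45, so their differences are given against that median, as −4.43, −3.25 and −2.84 or lower, and have no order. Hes1 (−2.51) and Heyl (−1.16) lay above it. Hes1 was thus low in GMPs and within 0.32 of MEFs in ESCs and both iPSC arrays.

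The Thy1+ cells, sorted on day 3 of OKSM, had 2 members higher than MEFs and 1 lower, beside 7.71% of all genes. Nrarp was higher by 2.08 and Hey2 by 1.05, and Heyl was lower, at −1.28. Hey1 came next, at 0.94. After a second quantile normalisation 1 member was counted as higher, since Hey2 lay at the size that counts.

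**Figure D4:**
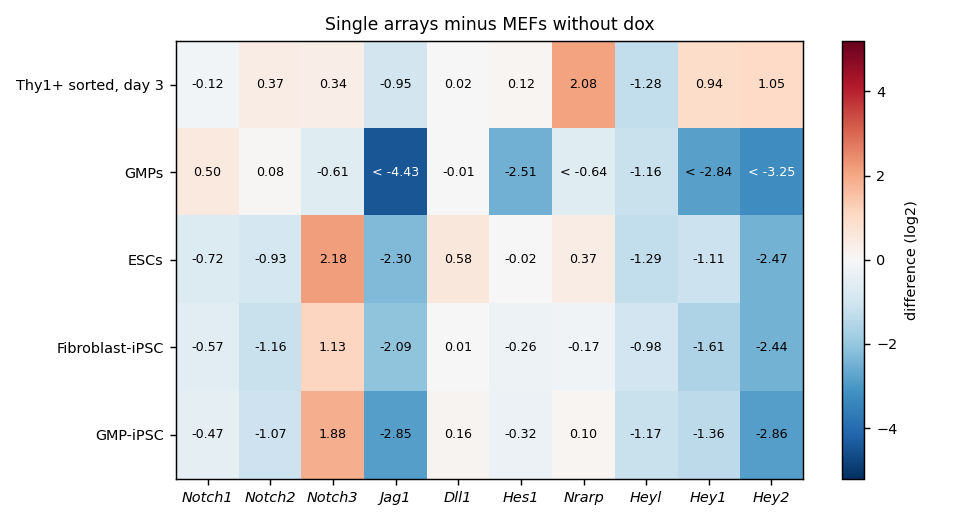
Difference of each single array from MEFs without dox (log2, printed in each cell; blue lower, red higher) for the 10 members. A cell marked < holds the difference of the median of that array from the MEF level, because the gene read below that median (4 genes in GMPs). Hey2, Hey1 and Jag1 are below 0 in GMPs, ESCs and both iPSC arrays, Notch3 is above 0 in ESCs and both iPSC arrays, and Nrarp is highest in Thy1+ cells at 2.08.

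The genes whose levels were most like those of Hey2 over the 18 arrays were named by Pearson correlation, as a description over arrays that share the contrast between the arms. They were Anks6 (r = 0.95), Dync1i2 (0.95), Mamld1 (0.94), Nacc2 (0.94) and Fam124a (0.94), with Spearman correlations of 0.90, 0.91, 0.80, 0.93 and 0.89. Dync1i2 encodes a chain of the dynein motor, and Mamld1 a protein with a Mastermind-like domain. Mamld1 read between 8.67 and 9.08 in OKSM and between 5.98 and 7.25 with AGi. Among the members, Hey1 was most like Hey2 (r = 0.88, with 67 tested genes above it, Hey2 itself counted), followed by Notch2 (0.65), Jag1 (0.54) and Nrarp (0.50). Hes1 (0.32), Heyl (0.25), Notch1 (0.075), Dll1 (0.040) and Notch3 (−0.15) came after them.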

How the data were processed

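RNA from 18 mouse cell samples was hybridised to Affymetrix mouse gene arrays. The authors deposited log2 values, for which the submitters' processing notes name RMA and Affymetrix Expression Console. The sources used here do not give versions, settings, scan batches or a build. Of 41345 probe sets, 23521 mapped to 1 gene symbol, 1814 to several and 15820 to none, with 190 controls left out; symbols were updated through RefSeq. For each gene the probe set of highest mean across all 18 arrays was used; Dll1 had 2. A gene was tested if its value reached the median of the array on 3 or more of the 12 time-course arrays (13865 genes).

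Tests used limma 3.58.1 in R 4.3.3 (lmFit, eBayes) with Benjamini-Hochberg adjustment over all genes tested and a threshold of 0.05. The difference between the arms had the day as a block (5 residual degrees of freedom); slopes came from arm, day and their product (8 residual degrees of freedom). Fits were tested on simulated data. Figures used matplotlib 3.10.9.

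The members and lists were chosen with earlier results of these data known. Named were all members; of the pathway list, genes called with at least 1 log2 and otherwise the 2 highest and 2 lowest called per role; and the 5 genes most like Hey2. Maml1 was added after its values were seen. Alternatives covered filters, probe set rules, normalisation, control subtraction, variance models, day terms and leaving out each day. Promoter letters are from RefSeq, GRCm38.p6.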

Additional observations from a re-analysis of the deposited data

Results flagged for a closer look

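On day 12 the difference of Hey1 between the arms, −2.31, stood apart from the other 5 days: the nearest was −1.27 and the one at the other end −0.75, and the gap made up 0.665 of the whole range, above Dixon's critical value for 6 values. Chance sets about 1 in 20 such groups apart, and 1 of the 30 examined stood apart here. The slopes of Notch2 differed between the arms by −0.12 log2 per day.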

How the results depend on the processing

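Over the alternatives run, Hey1 kept its call, and the counts not given below stayed within 1.5 times. The set was chosen because Hey2 was lower with AGi on each day, so its direction in these alternatives is no test. With the hybridisation controls subtracted, 3 members were lower with AGi (Hey1, Notch1 and Notch2), the pathway list had 1 higher and 28 lower, and Hes1 and Nrarp turned to −0.16 and −0.11. Slopes then gave 157 genes for the difference, with 0 members lower, 463 in OKSM, with 0 members higher, and 1430 with AGi, with 1 member lower. Against the largest control difference, 1183 genes were called between the arms, and the pathway list had 0 higher and 2 lower. Without the day block the list had 2 higher.

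On days 2, 4 and 6 alone, 1833 genes were called, the list had 1 higher and 5 lower, and Hes1, Notch1 and Dll1 turned to −0.025, 0.057 and 0.26. On days 8, 10 and 12 alone, 2 members were lower (Hey1 and Notch2), and Nrarp turned to −0.30. With days 8 to 12 given their own level, 0 genes had a called slope difference or slope in OKSM and 82 a slope with AGi, with 0 members in each; the slope differences of Hes1, Notch1 and Notch3 turned to −0.0094, 0.0012 and 0.079, and the slope of Notch2 in OKSM to −0.029. As late minus early days, 0 members differed in slope. A filter at the array median on all 12 arrays left 276 slope differences and 1 member falling with AGi, as did averaging probe sets (1 member). With no filter, 0 members rose in OKSM. A second quantile normalisation turned Dll1 to 0.023 and counted 1 member higher in Thy1+ cells.

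Leaving out each day in turn gave 3534 to 5613 genes between the arms, 94 to 484 slope differences, 341 to 1493 slopes in OKSM and 882 to 3283 with AGi. Between the arms 0 to 1 members were higher and 1 to 2 lower; 0 to 2 differed in slope, 0 to 1 rose in OKSM, and 0 to 1 rose and 1 to 3 fell with AGi. Differences ranged from −0.030 to 0.052 for Hes1, −0.040 to 0.29 for Nrarp and −0.11 to 0.10 for Dll1. Slope differences ranged from −0.0098 to 0.049 for Hey2, −0.0068 to 0.033 for Hes1 and −0.065 to 0.016 for Jag1. Slopes in OKSM ranged from −0.11 to 0.031 for Hey2 and −0.024 to 0.0036 for Jag1. Slopes with AGi ranged from −0.056 to 0.021 for Hey2, −0.15 to 0.035 for Hey1, −0.029 to 0.0076 for Heyl, −0.15 to 0.034 for Nrarp, −0.0064 to 0.035 for Notch1 and −0.061 to 0.0095 for Jag1. The cause of these changes was not tested.

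With 6 days and no repeated condition, small differences are not separated from the spread between days, and Dll1 lay near the array medians. The difference between the arms was paired by day, through its day block, and the slopes were not. Beyond that, no paired analysis was possible because the time-course labels number no replicates.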

Other observations

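Hes5, a Hes family gene known from neural progenitors, was picked out after its values were seen. In OKSM it read 7.14, 7.04, 6.94, 8.79, 7.18 and 8.41 in order of day, and with AGi 6.90, 7.01, 7.06, 7.52, 7.02 and 6.77. The OKSM arrays of days 8 and 12 stood above all others of the time course, and the difference between the arms was −0.54 ± 0.24 (limma SE, n = 6 days, lower on 5 of 6 days, limma adjusted p = 0.114).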
